A study of Homo sapiens with 9 samples.

Results

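HES1 and 9 other genes of the Notch pathway are described here in MDA-MB231 cells, a line derived from human breast cancer, treated with an inhibitor of metalloproteinases or of MEK. The 10 genes comprise 4 targets of the pathway (HES1, HEY1, HEYL and NRARP), 3 receptors (NOTCH1, NOTCH2 and NOTCH3) and 3 ligands (JAG1, JAG2 and DLL1), of 18132 genes measured. All probe sets annotated to one of these genes alone were taken, 33 in all, and the brightest on average over the 9 arrays stood for the gene. They were listed by their place in the pathway, but HES1, which heads the list, was chosen by its measured fall in BB94 against control in these same arrays. Its BB94 values are therefore a description with no test, and the other 9 genes were tested in every comparison.

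Cultures were lysed 24 h after treatment in fresh serum-containing medium. PD325901, an inhibitor of MEK, the kinase that activates ERK, was given at 3 µM (n = 3 arrays). BB94, or batimastat, a broad inhibitor of metalloproteinases, was given at 10 µM (n = 2). Control cultures received 0.1% DMSO (n = 4). Both inhibitors were diluted from DMSO stocks, and the labels give the final DMSO content for control only. RNA of each culture was hybridised to an Affymetrix PrimeView array, and the values are log2 probe set summaries made with RMA. Groups were compared with limma, p-values were adjusted over all genes measured, and a gene is said to be called, to pass, to rise or to fall at an adjusted p under 0.05.

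Notch receptors are single-pass membrane proteins that bind ligands of the Jagged and Delta-like families on neighbouring cells. Ligand binding exposes a site that a metalloproteinase of the ADAM family cuts, and gamma-secretase then releases the intracellular domain. In the nucleus that domain joins RBPJ and a Mastermind-like coactivator and switches on genes of the HES and HEY families, which encode transcriptional repressors, and NRARP, which encodes a feedback inhibitor. In breast cancer cells the pathway is known for a part in cell fate and stem-like growth.

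Levels of marker genes were those of a mesenchymal, hormone receptor-negative line. VIM, a mesenchymal marker, lay between 13.90 and 14.10 and CD44 between 12.84 and 13.25, while the hormone receptor genes ESR1 and PGR lay below background on all 9 arrays. Of 10 measured markers of leukocytes, fibroblasts and endothelium, 1 lay above background on any array, PDGFRB on 1 control array. Background was taken as the highest of 23 background control probe sets on each array, which lay between 6.02 and 6.50. It is a strict level close to the array medians of 6.05 to 6.34, so a gene below it need not be absent. The difference between 3' and 5' probe sets of ACTB, a sign of RNA integrity, ran from 3.50 to 4.15 under PD325901, stood at 3.91 and 4.22 under BB94 and ran from 2.96 to 3.89 in control. Its part in the results was not tested. Each value comes from a lysate of a whole culture, in which fewer expressing cells and less RNA per cell cannot be told apart.

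HES1, a repressor of the basic helix-loop-helix class and the best known target of Notch, was low under both inhibitors. On the log2 scale it stood at 5.59, 5.80 and 5.89 under PD325901, at 6.78 and 6.63 under BB94 and at 8.66, 9.89, 9.32 and 9.52 in control. The 3 groups did not overlap, and the order was the same whichever array of a group was taken: lowest under PD325901, next under BB94, highest in control. The control arrays spread most, with replicate 1 the lowest of the 4.

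Under PD325901 the level of HES1 averaged 5.76 ± 0.15 (SD, n = 3), against 9.35 ± 0.52 in control (SD, n = 4). All 3 treated arrays lay below background, so the fall was at least 7.60-fold, with a fitted log2 change of -3.59 (SE 0.23, adjusted p = 9.6e-07). This comparison shares its control arrays with the one in which HES1 first stood out.

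Under BB94 the level of HES1 averaged 6.71 ± 0.11 (SD, n = 2), against the same control mean of 9.35. The difference was -2.64 on the log2 scale, or 6.23-fold lower, with both treated arrays above background. The genes next to it by fitted BB94 difference, KLHL28, WNK3 and ANXA10, lay below background on both BB94 arrays, so that their place relative to HES1 is not settled. They were at least 4.95-fold, 1.64-fold and 2.79-fold lower under BB94 than in control. HES1 was at least 1.22-fold lower under PD325901 than under BB94, a bound because the PD325901 arrays lay below background, and the difference was not tested because the BB94 arrays had brought the gene to notice.

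Of the 5 probe sets annotated to HES1, 2 carried signal above background in control, and both were low under either inhibitor. The dimmer of them stood at 5.13, 5.34 and 4.85 under PD325901, at 6.23 and 5.94 under BB94 and at 7.60, 9.05, 8.42 and 7.77 in control. Its control arrays again lay above every treated array, and all treated arrays lay below background, which leaves a fall of at least 3.46-fold under PD325901 and a difference of at least 3.91-fold under BB94. The other 3 probe sets lay below background on every array and differed by -0.17 to 0.16 on the log2 scale between an inhibitor and control. With the mean of all 5 in place of the brightest, the HES1 change was -1.36 under PD325901 (adjusted p = 2.8e-06) and -0.98 under BB94.

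**Figure D1:**
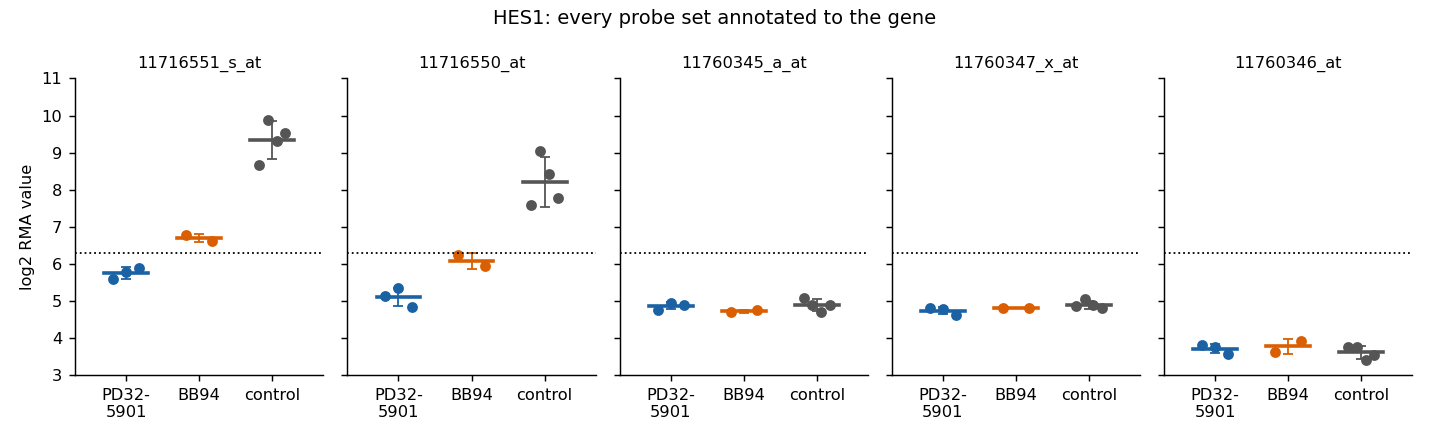
Each panel shows the log2 RMA value (vertical axis) of a HES1 probe set on every array, by group (horizontal axis), with the group mean as a thick line, its SD as a bar and the mean background level as a dotted line. In the 2 panels at the left the control arrays lie above all treated arrays, while in the other 3 every point lies below background.

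The region just before the HES1 start is shown with that of HEYL because these 2 targets moved in opposite directions under PD325901, as given below. Both sequences are the 250 bases before the start in RefSeq (GRCh38.p14), on the strand of the gene, HES1 at chr3:194135898-194136147 (+) and HEYL at chr1:39639644-39639893 (-). Capitals mark matches, on either strand, to TGGGAA, the core to which RBPJ binds, and to CACNAG, the N box to which HES proteins bind.
HES1: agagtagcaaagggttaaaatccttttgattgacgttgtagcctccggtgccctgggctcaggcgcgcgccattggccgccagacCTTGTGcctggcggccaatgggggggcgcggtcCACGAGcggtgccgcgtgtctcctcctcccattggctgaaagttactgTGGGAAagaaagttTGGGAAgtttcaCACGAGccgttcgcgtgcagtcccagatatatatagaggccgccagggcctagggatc
HEYL: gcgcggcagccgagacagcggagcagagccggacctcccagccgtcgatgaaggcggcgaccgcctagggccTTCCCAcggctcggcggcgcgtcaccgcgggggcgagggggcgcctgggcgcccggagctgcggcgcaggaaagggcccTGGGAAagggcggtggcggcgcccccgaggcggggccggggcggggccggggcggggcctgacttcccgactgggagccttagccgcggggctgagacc
The HES1 window held 2 matches to TGGGAA, from -84 to -79 and from -70 to -65 before the start, and 3 to CACNAG, with no overlap between them. HEYL held 2 matches to TGGGAA, from -178 to -173 on the opposite strand and from -99 to -94, and 0 to CACNAG. Of 35116 promoter windows of this length, 20.8% held at least 1 match to TGGGAA and 2.90% at least 2, and 0.911% held at least 3 matches to CACNAG. Among the windows kept, 8 of the 10 genes had one. HEY1 and DLL1 had no window there, so neither motif was sought for them. The shares above cover the kept windows only. NRARP, NOTCH1, NOTCH2, JAG1 and JAG2 held neither motif, and NOTCH3 held CACNAG once. A match describes the letters only and is not a measured binding site.

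The other 3 targets went separate ways under PD325901. HEY1, a repressor related to HES1, stood at 8.92, 8.85 and 8.84 under PD325901, at 10.35 and 10.31 under BB94 and at 10.67, 10.57, 10.67 and 10.63 in control. The groups were tight and did not overlap, with BB94 just under control and PD325901 far under both. HEY1 fell 3.39-fold under PD325901 (log2 -1.76, SE 0.07, adjusted p = 4.9e-08). Its BB94 change of -0.30 (SE 0.08) had an unadjusted p of 0.00366 in limma and did not pass over all genes (adjusted p = 0.128). With control replicates 3 and 4 alone it passed (log2 -0.32, adjusted p = 0.0457, within a range of 0.0457 to 0.679 over 21 alternatives). The second probe set of HEY1 lay below background on all arrays, and with the mean of both the PD325901 change was -0.98 (adjusted p = 1.0e-05).

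HEYL, the third member of the HEY family, went the other way. It stood at 7.91, 8.07 and 7.76 under PD325901, at 6.67 and 6.38 under BB94 and at 6.75, 6.72, 6.80 and 6.52 in control. The PD325901 arrays lay above all others, while the BB94 arrays overlapped control. HEYL rose 2.32-fold under PD325901 (log2 1.21, SE 0.11, adjusted p = 1.1e-05), and its BB94 change was -0.17 (95% interval -0.45 to 0.10, adjusted p = 0.738). Of its 4 probe sets, 3 rose under PD325901, by 1.21, 1.09 and, below background, 0.70 on the log2 scale. The fourth was not called (log2 0.18, adjusted p = 0.32 over all probe sets), and the mean of the 4 changed by 0.80.

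NRARP, which encodes an ankyrin protein that limits Notch signalling, fell under PD325901. Its values were 9.17, 9.004 and 9.13 under PD325901, 9.42 and 9.12 under BB94 and 9.92, 9.73, 9.59 and 9.58 in control. Every treated array lay below every control array, and the 2 inhibitors overlapped each other. The PD325901 change was -0.61 (SE 0.11, adjusted p = 0.00139), a 1.52-fold fall. The BB94 change was -0.44 (SE 0.13) with an unadjusted p of 0.00562 in limma and did not pass over all genes (adjusted p = 0.162). The second probe set of NRARP fell by 0.82 on the log2 scale under PD325901 and had a BB94 change of -0.49 (adjusted p = 0.0609 over all probe sets).

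**Figure D2:**
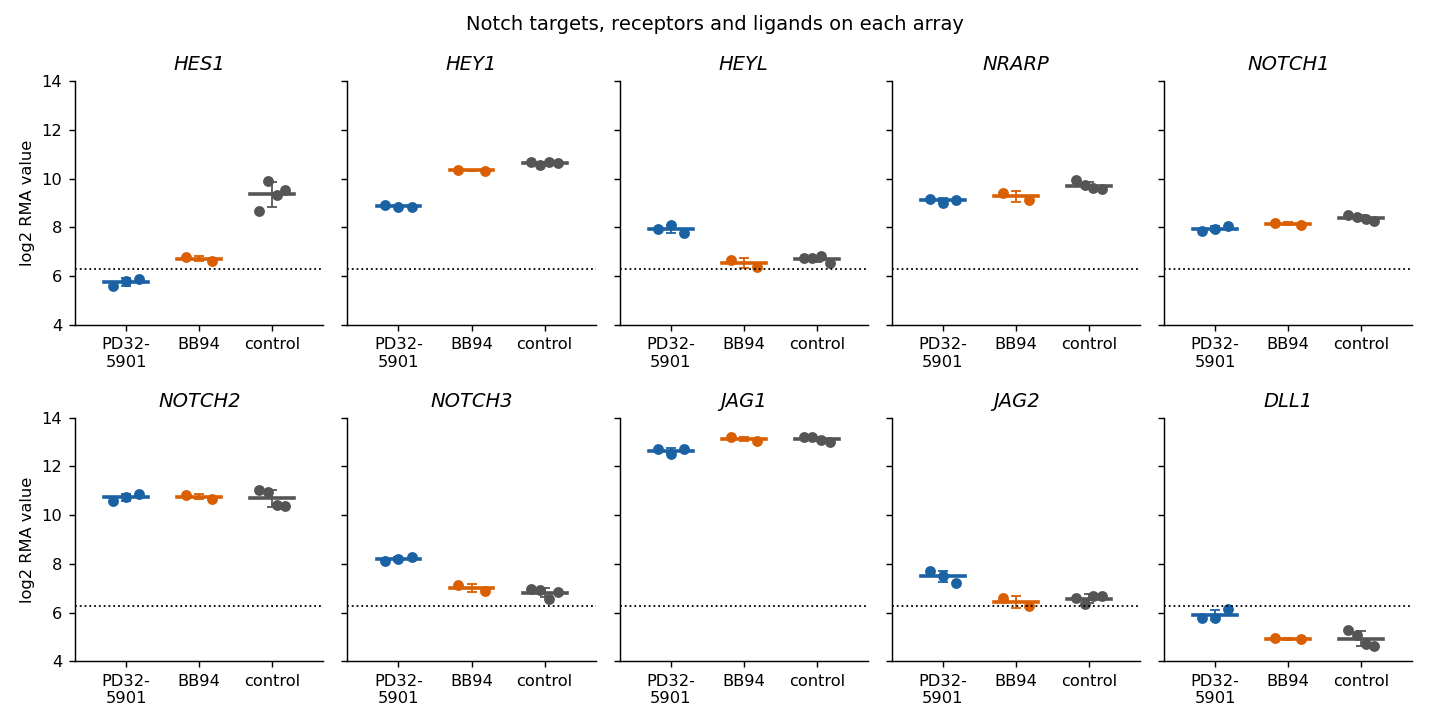
Each panel shows the log2 RMA value (vertical axis) of a gene on every array, by group (horizontal axis), with the group mean as a thick line, its SD as a bar and the mean background level as a dotted line. HES1 is low under both inhibitors, HEY1 is low under PD325901, and HEYL, NOTCH3, JAG2 and DLL1 are high there, with DLL1 below background throughout.

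Among the receptors, NOTCH3 rose under PD325901 and NOTCH1 had a small fall that 1 of its probe sets carried. NOTCH3 stood at 8.12, 8.21 and 8.27 under PD325901, at 7.13 and 6.89 under BB94 and at 6.97, 6.91, 6.56 and 6.84 in control. The PD325901 arrays stood clear of the rest, and BB94 overlapped control. The PD325901 change was 1.38 (SE 0.11, adjusted p = 4.6e-06), with 8.20 ± 0.08 under PD325901 and 6.82 ± 0.18 in control (SD, n = 3 and 4), and the BB94 change was 0.19 (95% interval -0.09 to 0.47, adjusted p = 0.708). The second NOTCH3 probe set lay below background on all arrays, and with the mean of both the PD325901 change was 0.70 (adjusted p = 1.3e-04).

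NOTCH1 stood at 7.86, 7.92 and 8.06 under PD325901, at 8.19 and 8.10 under BB94 and at 8.51, 8.40, 8.32 and 8.24 in control. No treated array reached the lowest control array. NOTCH1 fell 1.34-fold under PD325901 (log2 -0.42, SE 0.09, adjusted p = 0.00387), and its BB94 change was -0.22 (95% interval -0.45 to 0.01, adjusted p = 0.475). With the mean of its 3 probe sets in place of the brightest, the PD325901 change was -0.10 and not called (adjusted p = 0.463, range 2.1e-04 to 0.463 over 21 alternatives). A second probe set had a change of 0.06, and the third lay below background on all arrays.

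NOTCH2 did not pass in any comparison. It stood at 10.60, 10.74 and 10.86 under PD325901, at 10.84 and 10.68 under BB94 and at 11.04, 10.94, 10.43 and 10.38 in control. Control replicates 1 and 2 lay above all treated arrays and replicates 3 and 4 below all of them. The PD325901 change was 0.04 (95% interval -0.33 to 0.40, adjusted p = 0.902) and the BB94 change 0.06 (95% interval -0.35 to 0.48, adjusted p = 0.967). Against control replicates 1 and 2 alone the PD325901 change was -0.26 (adjusted p = 0.0843), and against replicates 3 and 4 alone it was 0.33 (adjusted p = 0.025), within a range of 0.025 to 0.944 over 21 alternatives.

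The 3 ligand genes were all called under PD325901, where 35.1% of all genes were called. JAG1 was lower and JAG2 and DLL1 were higher, DLL1 below background on every array. JAG1, which encodes Jagged 1, stood at 12.70, 12.53 and 12.70 under PD325901, at 13.20 and 13.07 under BB94 and at 13.21, 13.19, 13.08 and 13.01 in control. The BB94 and control arrays overlapped, and all PD325901 arrays lay below both. The fall under PD325901 was 1.40-fold for this brightest probe set (log2 -0.48, SE 0.09, adjusted p = 0.00132). Of its 6 probe sets, 4 fell under PD325901, 3 of them with control arrays above background. The second brightest fell by 1.19 on the log2 scale (adjusted p = 3.0e-06 over all probe sets), with 10.41, 10.34 and 10.22 under PD325901, against 11.61, 11.52, 11.51 and 11.42 in control. The third fell by 0.93, with all PD325901 arrays below background. The BB94 change of the brightest was 0.01 (95% interval -0.21 to 0.23, adjusted p = 0.996).

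JAG2, the other Jagged gene, has 1 probe set on the array. It stood at 7.70, 7.51 and 7.23 under PD325901, at 6.61 and 6.27 under BB94 and at 6.61, 6.34, 6.67 and 6.70 in control. The PD325901 arrays lay above all others and the rest overlapped. JAG2 rose 1.87-fold under PD325901 (log2 0.90, SE 0.14, adjusted p = 4.2e-04), and its BB94 change was -0.14 (95% interval -0.49 to 0.20, adjusted p = 0.868).

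DLL1, a Delta-like ligand gene, lay below background on all 9 arrays, so no fold is given. Its values were 5.79, 5.80 and 6.15 under PD325901, 4.96 and 4.91 under BB94 and 5.28, 5.10, 4.72 and 4.61 in control. The fitted log2 change was 0.98 under PD325901 (SE 0.16, adjusted p = 6.9e-04) and 0.01 under BB94 (adjusted p = 0.998). The other 2 probe sets of DLL1 were not called under PD325901, and the mean of the 3 changed by 0.39 (adjusted p = 0.0108).

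In all, 9 of the 10 genes passed in PD325901 against control, 4 higher and 5 lower, where 35.1% of all genes passed (22.8% higher and 12.3% lower). The median log2 change was -0.19 over the 10 genes and 0.08 over all genes. Setting the median over genes of every array to the same value moved the median of all genes to -0.17 and left 4 of the 10 genes higher and 5 lower. In BB94 against control, 0 of the 9 genes other than HES1 passed in limma, with 2 at an unadjusted p under 0.05, HEY1 and NRARP. Over all genes 1.58% passed there (0.491% higher and 1.09% lower) and 10.9% had an unadjusted p under 0.05. With 2 BB94 arrays, a lack of a call does not show that a level was unchanged, and the intervals above give what the data allow.

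**Figure D3:**
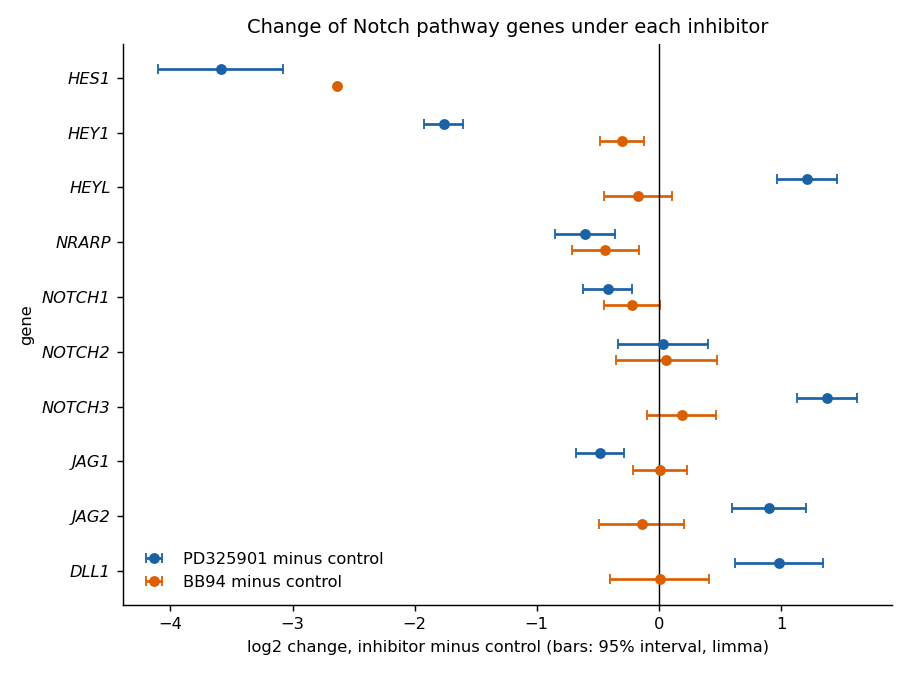
Points show the log2 change of each gene (vertical axis) for PD325901 minus control and BB94 minus control (horizontal axis, log2 units), with 95% intervals from limma. HES1 under BB94 is drawn without an interval, because it was not tested. Under PD325901 the changes run from -3.59 for HES1 to 1.38 for NOTCH3, while under BB94 those of the other 9 genes lie between -0.44 and 0.19.

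The 2 inhibitors were set against each other in the same fit, which tests whether their changes differ. PD325901 against BB94 passed for 6 of the 9 genes other than HES1, where 31.2% of all genes passed (21.0% higher and 10.2% lower). HEYL (log2 1.39), NOTCH3 (1.19), JAG2 (1.05) and DLL1 (0.98, below background in both groups) were higher under PD325901. HEY1 (-1.46, adjusted p = 7.9e-07) and JAG1 (-0.49, adjusted p = 0.00434) were lower. NRARP (-0.17, 95% interval -0.46 to 0.12), NOTCH1 (-0.20, 95% interval -0.44 to 0.04) and NOTCH2 (-0.03, 95% interval -0.46 to 0.41) did not pass. With arrays centred over genes the count was 8, with NRARP and NOTCH1 lower as well, which turned the split from 4 higher and 2 lower to 4 and 4.

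Beyond the 10 genes, a wider list of the pathway held 66 genes, of which 63 had a probe set of their own. Under PD325901, 31 of these 63 passed, 22 higher and 9 lower, and without the 10 genes above 22 of 53 passed (41.5%, against 35.1% of all genes), 18 higher and 4 lower. The median change was 0.22 over the 63 genes. Centring over genes turned the split of the 63 to 12 higher and 14 lower, and centring over probe sets to 18 and 12. The direction of most small changes in this list is therefore relative to the scaling.

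Of the receptor processing genes, which encode the convertase furin, the sheddases and gamma-secretase, 8 were measured. Of these, 5 were higher and 0 lower under PD325901, where 22.8% of all genes were higher and 12.3% lower, and 2 of the 5 were not called with arrays centred over genes. APH1B, a subunit of gamma-secretase, stood at 11.40, 11.33 and 11.35 under PD325901, against 10.47, 10.30, 10.16 and 10.06 in control, a 2.16-fold rise (adjusted p = 1.0e-05). NCSTN, which encodes the gamma-secretase subunit nicastrin, rose 1.67-fold (adjusted p = 0.00388), and PSEN2, which encodes a catalytic subunit, had a log2 change of 0.58 (adjusted p = 1.8e-04). ADAM10 and ADAM17, which encode proteases that cut Notch at the cell surface, had log2 changes of 0.39 and 0.30 (adjusted p = 0.00509 and 0.0179). With arrays centred over genes neither was called (log2 0.13 and 0.05, adjusted p = 0.302 and 0.72, the highest of 21 alternatives for each). ADAM17 was also not called without PD325901 replicate 1 or 3 (adjusted p = 0.0619 and 0.0673).

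LFNG, which encodes lunatic fringe, a glycosyltransferase that changes which ligands a Notch receptor answers to, fell under PD325901. It stood at 8.92, 8.83 and 8.74 under PD325901, at 10.39 and 10.17 under BB94 and between 10.32 and 10.50 in control (mean 10.43 ± 0.08, SD, n = 4). The PD325901 arrays lay far below the rest, a 3.03-fold fall (log2 -1.60, SE 0.09, adjusted p = 3.3e-07). PD325901 minus BB94 was -1.45 (adjusted p = 3.4e-06). Of 5 glycosylation genes, 2 were higher and 1 lower, where 22.8% of all genes were higher and 12.3% lower. The 2 higher ones, POGLUT1 and RFNG, were not called with arrays centred over genes (log2 0.08 and 0.27). POGLUT1 was not called either without any 1 PD325901 array or control replicate 3 (adjusted p between 0.0505 and 0.0699), nor RFNG without PD325901 replicate 1 (adjusted p = 0.0635).

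In the nuclear complex, 3 of 8 genes were higher and 1 lower under PD325901, where 35.1% of all genes passed. RBPJ, the DNA-binding partner of the Notch intracellular domain, fell 1.37-fold (log2 -0.45, SE 0.08, adjusted p = 0.00147), with 11.64, 11.56 and 11.56 under PD325901 against 12.16, 11.99, 12.09 and 11.92 in control. MAML2, a Mastermind-like coactivator, rose 1.59-fold (adjusted p = 2.1e-04) and the acetyltransferase gene KAT2B 1.65-fold (adjusted p = 0.00693). KAT2B was not called with arrays centred over genes (log2 0.47, adjusted p = 0.0515). The third higher gene, CREBBP, another acetyltransferase gene, had a log2 change of 0.35 (adjusted p = 0.0395). It was not called with arrays centred over genes (log2 0.10, adjusted p = 0.528, the highest of 21 alternatives). Nor was it called without any 1 PD325901 array, any 1 BB94 array or control replicate 3 or 4 (adjusted p between 0.0524 and 0.146). DTX4, a Deltex E3 ligase gene, rose 2.36-fold (log2 1.24, SE 0.08, adjusted p = 1.4e-06). Of 13 genes of endocytosis and turnover, 4 were higher and 0 lower, against 35.1% of all genes called. The other 3, NUMBL, NEURL1B and DTX3, were not called with arrays centred over genes (adjusted p = 0.0624, 0.173 and 0.0696), and DTX3 lay below background on all PD325901 and control arrays. NEURL1B was not called either without control replicate 2, 3 or 4 or PD325901 replicate 1 or 2 (adjusted p between 0.0548 and 0.117).

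Other genes of the HES family were called under PD325901. HES7 stood at 9.51, 9.21 and 9.02 under PD325901, at 9.06 and 8.73 under BB94 and at 8.44, 8.52, 8.59 and 8.37 in control, a 1.70-fold rise under PD325901 (adjusted p = 7.6e-04) and a BB94 change of 0.42 (adjusted p = 0.281). HES6 averaged 8.90 ± 0.09 under PD325901 (SD, n = 3), with 9.08 and 8.85 under BB94 and 9.29, 9.26, 9.42 and 9.54 in control. Treated arrays lay below control for HES6 and above it for HES7. HES6 fell 1.39-fold under PD325901 (adjusted p = 0.00301), and its BB94 change was -0.42 (adjusted p = 0.129). HES4 and HES5 lay below background on all arrays.

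Under BB94, 1 of 62 measured genes of the wider list other than HES1 passed, where 1.58% of all genes passed. TLE1, a Groucho-type corepressor that works with HES proteins, stood at 8.30 and 8.09 under BB94, against 8.60, 8.63, 8.64 and 8.66 in control (log2 -0.43, SE 0.09, adjusted p = 0.0406). It was not called in 15 of 21 alternatives, with adjusted p up to 0.508, reached without BB94 replicate 2 (log2 -0.33). Under PD325901 TLE1 rose 1.55-fold (adjusted p = 1.0e-04).

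**Figure D4:**
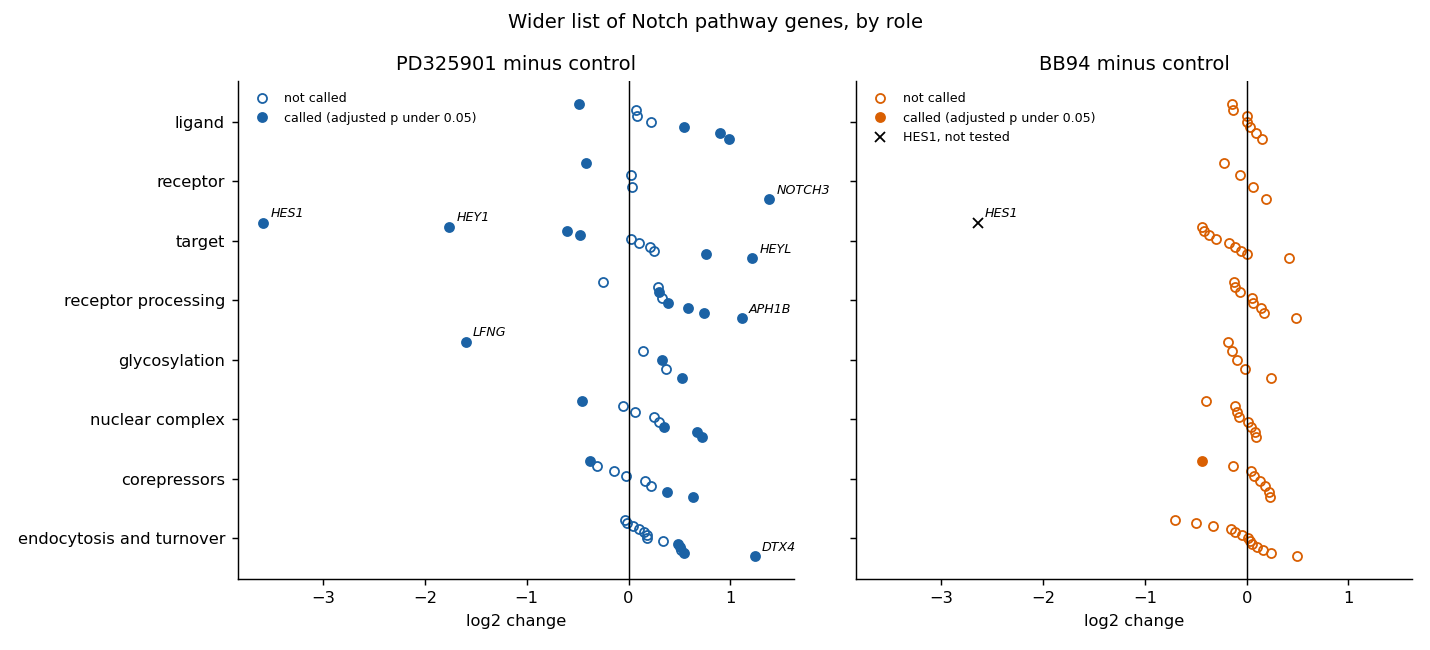
Each point shows a gene of the wider Notch list, placed by role (vertical axis) and log2 change (horizontal axis) for PD325901 minus control and BB94 minus control, with filled points for genes called at an adjusted p under 0.05 and names where the change exceeds 1. Under PD325901 HES1, HEY1 and LFNG stand to the left and NOTCH3, HEYL, DTX4 and APH1B to the right, and under BB94 the points other than HES1 gather around 0.

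Of 4 measured genes that HES1 is known to repress in other settings, 2 lay above background, CDKN1C and CDKN1B. Both rose under PD325901, where 22.8% of all genes did, and neither was called under BB94. CDKN1C, which encodes the cyclin-dependent kinase inhibitor p57, stood at 11.74, 11.83 and 11.84 under PD325901, at 9.28 and 9.22 under BB94 and at 9.53, 9.71, 9.72 and 9.93 in control. It rose 4.23-fold under PD325901 (log2 2.08, adjusted p = 1.2e-07), and under BB94 the change was -0.47 (adjusted p = 0.0748). CDKN1B, which encodes p27, rose 2.04-fold under PD325901 (adjusted p = 4.1e-05) and had a BB94 change of -0.14 (adjusted p = 0.817). PD325901 against BB94 passed for both genes (log2 2.55 and 1.17, adjusted p = 1.8e-07 and 7.6e-05). ATOH1 and NEUROG3 lay below background on all arrays.

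Of the genes through which ERK signalling is read, DUSP6, a phosphatase of ERK, and CCND1, which encodes cyclin D1, fell under PD325901 (log2 -4.01 and -3.29, adjusted p = 1.5e-04 and 3.6e-08). Under BB94 their changes were -0.09 and -0.15 (adjusted p = 0.989 and 0.845). DUSP6 differed among the PD325901 arrays, at 11.04, 8.99 and 8.02 in replicates 1 to 3. CCND1, at 9.58, 9.31 and 9.05, and SPRY4, also read for ERK, at 6.72, 5.83 and 4.78, ran in the same order. For SPRY4 only replicate 1 lay above background. The cause of this order was not tested.

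The genes whose pattern over the 9 arrays was most like that of HES1 were also low under both inhibitors. Among 1296 other genes with a mean above background and an SD of at least 0.5, the highest Pearson correlations with HES1 were those of IL1B, the interleukin-1 beta gene (0.98), the axon guidance ligand gene SLIT2 (0.98) and the thromboxane synthase gene TBXAS1 (0.97). The lymphotoxin gene LTB (0.97) and the cystatin genes CST1 (0.97) and CST4 (0.96) followed. IL1B averaged 5.67 under PD325901, 6.81 under BB94 and 8.50 in control. The most opposite patterns were those of HPGD, which encodes a prostaglandin-degrading enzyme (-0.97), the nicotinamide methyltransferase gene NNMT (-0.97), IL1R1, a receptor of interleukin 1 (-0.96), and KLF7 (-0.96). NNMT averaged 11.29 under PD325901, 11.06 under BB94 and 7.85 in control. These correlations come from 9 arrays in 3 groups that the genes share, so they mostly restate which genes differ between treated and control arrays.

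**Figure D5:**
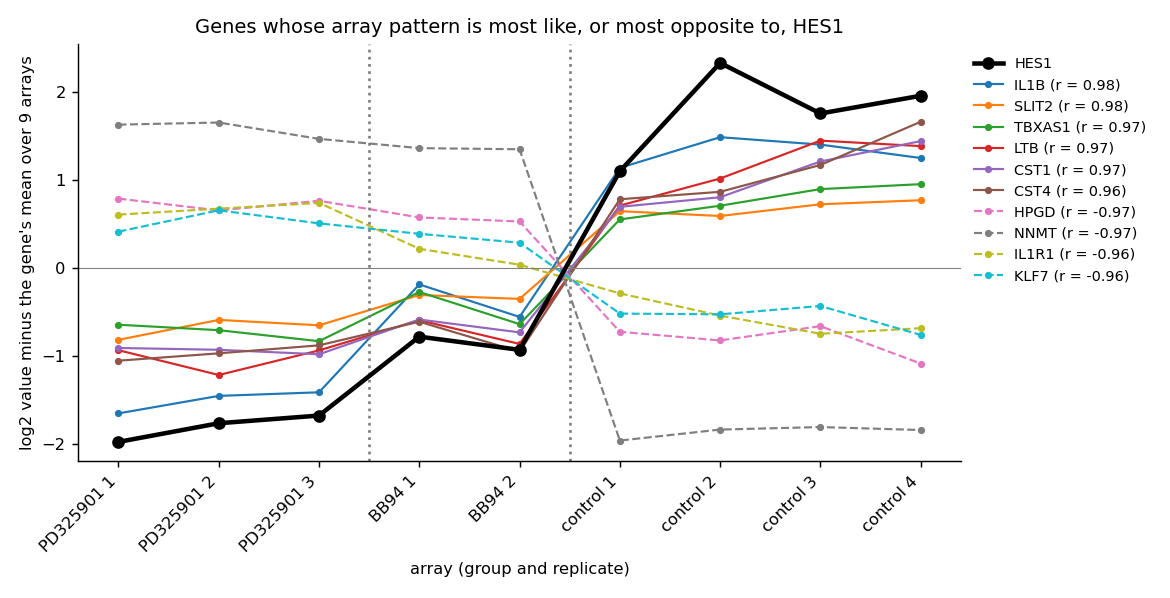
Lines show, for HES1 and the genes most like or most opposite to it, the log2 value on each array (horizontal axis) minus the mean of that gene over 9 arrays (vertical axis, log2 units), and serve only to join the points of a gene. HES1 and the 6 like genes lie low on the PD325901 and BB94 arrays and high on the control arrays, and the 4 opposite genes do the reverse.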

How the data were processed

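Per the series design text, the authors processed the arrays with RMA in the affy package, and the table they deposited holds a log2 value per probe set and array, used here unchanged. Of 49395 probe sets, 102 control probe sets were left out. The platform annotation gave 44988 probe sets 1 symbol, 1832 several and 2473 none, and only those with 1 were used for genes. Array values carry no depth, and the number of arrays limits the precision.

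The comparisons used limma 3.58.1 under R 4.3.3 (lmFit and eBayes, a coefficient per group, two-sided, 6 residual degrees of freedom over all 9 arrays). P-values were adjusted by the Benjamini-Hochberg method over all 18132 genes, and "called" or "passed" means an adjusted p under 0.05. Probe sets other than the representative one were read from a fit over all probe sets. A group below background on every array has only a bound, so its fold is given as "at least". The fit was tested on simulated data. Members, lists and tests were chosen with earlier results of these data known. The named genes were the 10 members, called genes of the wider list, the 6 most like and 4 most opposite to HES1, and its neighbours by BB94 change. Some genes of the lists are not reported here. The 21 alternatives covered probe sets, filter, variance model, array weights, centring, cyclic loess, samples and the replicate number.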

Additional observations from a re-analysis of the deposited data

Results flagged for a closer look

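The change differed between PD325901 and BB94 for 6 of the 9 genes other than HES1, by the direct test of the inhibitors in limma, where 31.2% of all genes passed. The differences, PD325901 minus BB94 on the log2 scale, were -1.46 for HEY1, 1.39 for HEYL, 1.19 for NOTCH3, -0.49 for JAG1, 1.05 for JAG2 and 0.98 for DLL1, which lay below background in all groups. These genes were picked by this test, so a lack of overlap between their PD325901 and BB94 arrays adds no further support. HEY1 had negative fitted changes under both inhibitors, -1.76 and -0.30, the BB94 one not called (limma adjusted p = 0.128). JAG1, also lower under PD325901, had a BB94 change of 0.01, the sign of which varied over the alternatives.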

How the results depend on the processing

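Among the 10 genes, the 9 calls in PD325901 against control ran from 8 to 10 over 21 alternatives and the 6 in PD325901 against BB94 from 5 to 8. The count of 0 in BB94 against control became 1 with control replicates 3 and 4 alone. For the wider list, 31 calls under PD325901 ran from 26 to 39. Its BB94 count of 1 became 0 with every probe set tested, with trend and robust settings or with arrays centred over genes. The count was also 0 with only the groups compared and with control replicates 1 and 2 alone. It became 2 with centring over probe sets, where TLE1 was not called (limma adjusted p = 0.159). It became 3 with array weights or cyclic loess and 8 with control replicates 3 and 4 alone. With arrays left out in turn it ran from 0 to 3. Fits with fewer arrays or groups have fewer degrees of freedom, and they gave both lower and higher counts. The cause of these shifts was not tested.

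With the replicate number as a block, the counts were 9, 0 and 6 for the 10 genes and 30 and 1 for the wider list. The BB94 call in that fit was not TLE1 (limma adjusted p = 0.199). Deviations from the group mean of PD325901 and control arrays of the same number correlated at 0.05, -0.10 and -0.18. With so few arrays per group, these values cannot settle whether the numbers pair samples. The block turned the sign of uncalled changes of NOTCH2 (-0.071 under PD325901, -0.106 under BB94, 0.036 for PD325901 against BB94), of JAG1 (-0.037) and of DLL1 (-0.117) under BB94.

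Other sign changes concerned changes near 0. For NOTCH2 under PD325901 the value was -0.105 with array weights, -0.217 with centring over genes, -0.066 over probe sets and -0.259 with control replicates 1 and 2 alone, and -0.071 to 0.151 with an array left out. Under BB94 it was -0.011 with the mean of probe sets, -0.080 with array weights and -0.233 with control replicates 1 and 2 alone, and -0.044 to 0.177 with an array left out. PD325901 against BB94 gave 0.024 with the mean of probe sets and -0.105 to 0.053 with an array left out. JAG1 under BB94 was -0.058 with the mean of probe sets, -0.034 with array weights, -0.017 with cyclic loess and -0.071 with control replicates 1 and 2 alone, and -0.059 to 0.073 with an array left out. DLL1 under BB94 was -0.078, -0.094 and -0.254 with the mean of probe sets, array weights and control replicates 1 and 2 alone, and -0.099 to 0.124 with an array left out. JAG2 under BB94 ran from -0.313 to 0.029, and NOTCH1 in PD325901 against BB94 was 0.032 with the mean of probe sets. The HES1 difference under BB94 ran from -2.95 to -0.98, with -0.98 from the mean of its 5 probe sets, of which 3 lay below background. Values below background carry no firm order, which holds for the calls of DLL1 too. A filter on the mean above background left DLL1 out. The counts for PD325901 against control and against BB94 were then 8 and 5.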

Other observations

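Probe sets that several genes share also list NOTCH2, with its partial copies of the NOTCH2NL family and with genes of the NBPF family. They were left out of the comparisons. The brighter 2 of these 4 stood at 8.56 to 8.74 and 9.19 to 9.33 under PD325901, at 8.96 to 9.02 and 9.64 to 9.68 under BB94 and at 8.71 to 9.14 and 9.28 to 9.64 in control. The dimmer of this pair had a log2 change of -0.34 under PD325901 (limma adjusted p = 0.0425 over all probe sets). Its PD325901 and control arrays overlapped. The brighter had a change of -0.28 and was not called (adjusted p = 0.0623 over all probe sets). Changes of the probe sets annotated to NOTCH2 alone ran from -0.13 to 0.13.

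MIB1, an E3 ligase gene for Notch ligands named after its values were seen, had control replicates 1 and 2 above replicates 3 and 4. NOTCH2, KAT2B and CREBBP, among others, divided the control arrays in the same way. MIB1 stood at 7.90, 8.11 and 8.25 under PD325901, at 7.76 and 7.59 under BB94 and at 8.20, 7.93, 7.08 and 7.08 in control replicates 1 to 4. Unlike for NOTCH2, its control replicates 1 and 2 did not lie above all treated arrays.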
